A study of Mus musculus with 2 samples.

Results

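The genes described here are the chemokines and chemokine receptors of the mouse, measured in cells of the embryonic stem (ES) cell line R1 before and after neural differentiation. The members were chosen by gene name from the annotation of the array: a name made of Ccl, Cxcl, Ccr or Cxcr and a number, or Cx3cl1, Cx3cr1 or Xcl1. That gave 50 genes with 65 probes, 35 of them ligand genes and 15 receptor genes, of 19466 named genes on the array. The names were chosen from the annotation alone, but the family was picked for description with the signals of these same arrays known, so its values are given as a description.

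One group, day 0, held undifferentiated R1 ES cells, which grew on mitotically inactive fibroblast feeders in serum-containing medium (15% FBS) supplemented with 1000 U/ml of the cytokine LIF, which keeps ES cells undifferentiated. The other group, day 6, held embryoid body cells of the same line, called neural precursors in the labels, taken at day 6 of direct neural differentiation. How far feeder cells were removed before RNA extraction was not stated in the labels. Both groups share the R1 genotype, and no transgene or gene deletion is named for either. Each group was 1 total RNA sample labelled with Cy3 and read on 1 array, so no difference has a replicate check and no test was possible. Fewer cells of a type and less RNA per cell cannot be told apart in such bulk samples.

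Chemokines are small secreted proteins that direct the movement of cells by binding receptors of the G protein-coupled class. Inflammatory chemokines are switched on by cytokines, interferons and microbial products and attract monocytes, neutrophils or T cells, and fibroblasts are a well-known source of several of them. Homeostatic chemokines are made without such stimulation and place cells in tissues, and Cxcl12 with its receptor Cxcr4 guides migrating neural precursors and neurons in the embryo.

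An intensity below is the spot brightness after the scanner software's background subtraction. A log2 difference is the day 6 value minus the day 0 value after each array was centred on its 75th percentile, which stood at 3746 intensity units on day 0 and 4371 at day 6. The software marks a probe as well above background or not, and the lowest intensity so marked was 102 on day 0 and 85.2 on day 6. Where only 1 array carried that mark, just a minimum fold can be stated, and it is introduced by "at least". The bound sets the bright array against the higher of the dim array's lowest value well above background and the probe's own value. An error after ± is the SD of the log2 difference by the software's error model, which does not hold the spread between cultures. No member probe was saturated on either array (0 of 65).

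The members parted into many inflammatory ligands that were bright on day 0 and dim on day 6, and a few genes, led by Cxcr4, that were brighter on day 6. Of the 50 member genes, 26 were measured, which means well above background by 1 or more arrays: 10 by both, 13 by the day 0 array alone and 3 by the day 6 array alone. Over the array, 14967 of the 19466 named genes were measured, a larger share. A total of 17 members were at least 2-fold lower on day 6, against 20.0% of the 14967 genes measured on the array. At 4-fold 15 were lower, against 8.35% of all measured genes. On the higher side, 3 members passed 2-fold, where 17.8% of all genes did, and 1 (Cxcr4) passed 4-fold, where 7.36% did. A gene that entered only through its day 0 signal could not be other than lower, so these counts partly follow from the filter. Among the 10 members measured on both arrays, 4 were at least 2-fold lower (Ccl2, Cxcl4, Cxcl14 and Cxcl16), 3 were higher (Ccl25, Ccl27 and Cxcr4) and 3 lay within 2-fold. Where genes had to pass on both arrays, 2336 of 12979 over the array were at least 2-fold lower and 2137 higher. Both member shares were larger than these, but they rest on 10 genes. The share of genes seen on day 0 only was 5.37% over the array (804 genes), beside 13 of 26 here.

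**Figure D1:**
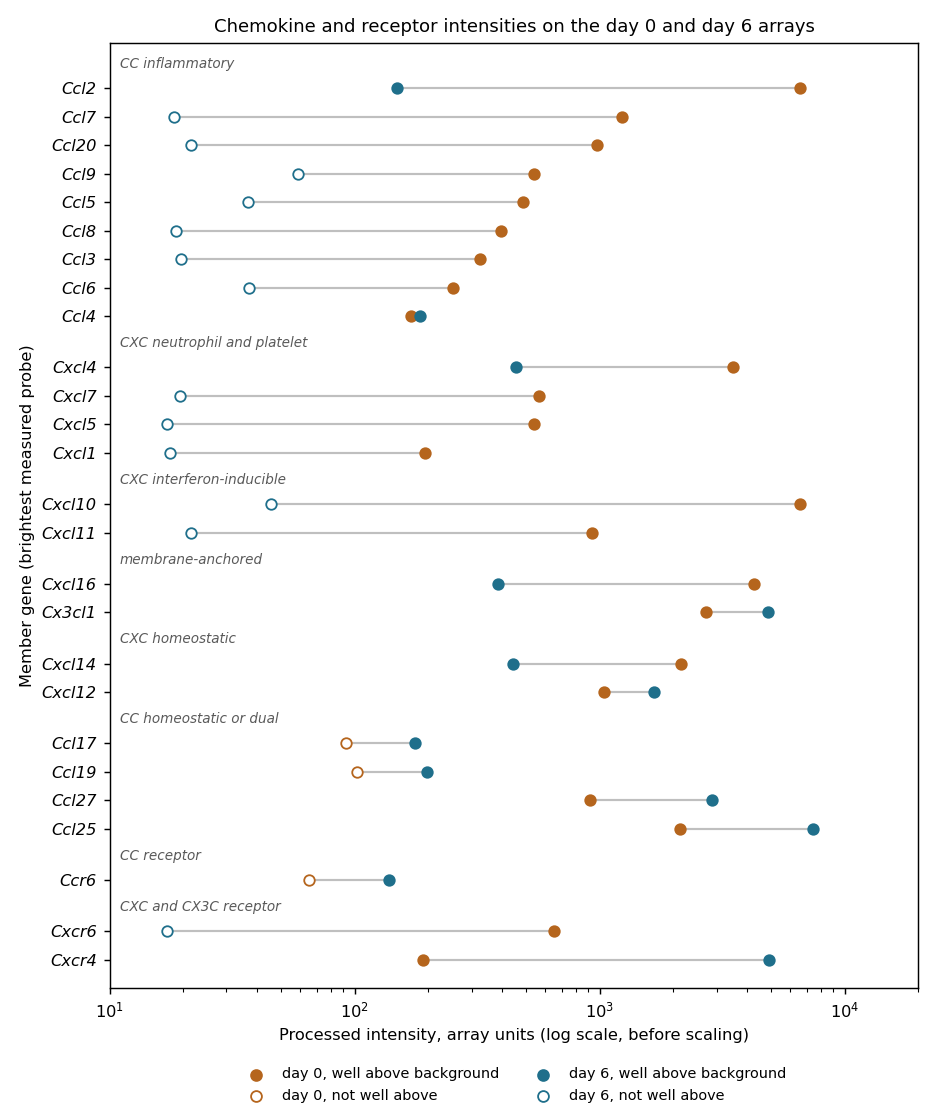
Intensity of each of the 26 measured member genes on the day 0 array (brown) and the day 6 array (blue), on a log axis, grouped by role. Filled points are well above background and open points are not. Most inflammatory ligands run from a filled day 0 point to an open day 6 point, and Cxcr4 runs from 190 on day 0 to 4893 on day 6.

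The 3 genes with the widest gaps, by difference or bound, were Ccl2, Cxcl10 and Cxcr4, and the 60-base oligonucleotides that measured them are shown by their first 30 bases, in capitals as spotted. No member probe shared 30 letters in a row with a probe of another gene (0 of 65). The Ccl2 oligonucleotide lies at chr11:82118723-82118782 on the plus strand, and that of Cxcl10 at chr5:92334002-92334061 on the minus strand. Cxcr4 had 2 oligonucleotides, at chr1:128469220-128469279 and chr1:128468640-128468699 on the minus strand. All positions are in build mm7, as the array files give them.
Ccl2: TGTAGGAGTGACCAGTGTGACAGTGAACTA
Cxcl10: GCTTTGCATTGTATATGGAAGAACTTGTGT
Cxcr4, first position: CATATTATGTGGGGATCAGCATCGACTCCT
Cxcr4, second position: AGGAAGAAACTGAACATTCCAGAATGTGTG

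Of the 13 inflammatory CC ligands, 9 were measured, 8 of them at least 2-fold lower on day 6 and 0 higher. Over all measured genes 20.0% were lower and 17.8% higher by that size. However, 7 of the 9 entered through the day 0 array alone, so their direction follows from the filter. Ccl2 (MCP-1), the main attractant of monocytes through Ccr2, was spotted 10 times on each array. Its day 0 spots ranged from 6125 to 7111 intensity units with a median of 6612, and its day 6 spots from 136 to 170 with a median of 149. The spots of the arrays did not overlap, and the lowest day 0 spot was 36.0 times the highest day 6 spot before scaling. The SD between spots was 0.0649 log2 units on day 0 and 0.0962 on day 6. Scaled, Ccl2 was 51.7-fold lower on day 6, a log2 difference of -5.69 ± 0.28. It held rank 48 in size among the 7174 genes that were measured on both arrays and lower on day 6. The log2 difference was -4.99 with normexp background correction and -4.85 with no background subtraction.

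Ccl7 and Ccl8, relatives of Ccl2 that also attract monocytes, had 1229 and 396 intensity units on day 0. On day 6 neither passed the background mark, at 18.4 and 18.6 units. Ccl7 was at least 16.8-fold lower and Ccl8 at least 5.43-fold lower. The log2 bounds of -4.07 and -2.44 came as near to 0 as -3.04 and -1.61 under the alternative settings. The second Ccl7 probe had 671 units on day 0 and 18.9 on day 6 and was at least 9.20-fold lower.

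Ccl20, which draws lymphocytes and dendritic cells through Ccr6, had 975 intensity units on day 0 and 21.5 at day 6, at least 13.4-fold lower. Ccl9 and Ccl6 are chemokines of the mouse that act through Ccr1. Ccl9 had 542 units on day 0 and 58.7 on day 6, at least 7.43-fold lower. Ccl6 had 251 and 37.1 units, at least 3.45-fold lower. For all 3 genes the day 6 signal was not well above background. Under the alternatives the log2 bound of Ccl20 (-3.74) came as near to 0 as -2.51, and that of Ccl9 (-2.89) as near as -1.95.

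Ccl3, Ccl4 and Ccl5 are attractants of monocytes and T cells. Ccl5 (RANTES) had 488 intensity units on day 0 and 36.8 at day 6 and was at least 6.69-fold lower. Its second probe had 204 and 17.9 units, at least 2.80-fold lower. Ccl3 had 325 and 19.6 units, at least 4.45-fold lower. The log2 bounds of Ccl5 (-2.74) and Ccl3 (-2.16) came as near to 0 as -1.94 and -1.32 under the alternatives. Ccl4, a neighbour of Ccl3 on the chromosome, was near the detection limit on both arrays, with 170 and 185 units and a log2 difference of -0.10 ± 0.32 (0.12 with no scaling). Ccl4 differed by less than its software error and was the only measured inflammatory CC ligand of the 9 within 2-fold.

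All 4 measured genes of the 6 CXC ligands of neutrophils and platelets were at least 2-fold lower on day 6, beside 20.0% of all measured genes. Of these 4, 3 entered through the day 0 array alone, so their direction follows from the filter. Cxcl4, now named Pf4, is a platelet factor also made by macrophages, and it had 3512 intensity units on day 0 against 454 at day 6, 9.03-fold lower (log2 -3.17 ± 0.21). Cxcl5, Cxcl7 (now Ppbp) and Cxcl1 draw neutrophils through Cxcr2. Cxcl5 had 540 units on day 0 and 17.1 on day 6, at least 7.40-fold lower. Cxcl7 had 566 and 19.3 units, at least 7.76-fold lower. Their log2 bounds (-2.89 and -2.96) came as near to 0 as -2.10 and -1.97 under the alternatives. Cxcl1 (KC) was dimmer on day 0, with 193 and 17.7 units, at least 2.64-fold lower. The Cxcl1 bound fell under 2-fold with no background subtraction (log2 -0.95).

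The interferon-inducible ligands of Cxcr3 held the largest bound of the family. Cxcl10 (IP-10) had 6541 intensity units on day 0 and 45.5 at day 6, where it was not well above background, and was at least 89.6-fold lower (log2 bound -6.49). That bound was -5.34 with normexp and -5.13 with no background subtraction. Cxcl11 had 927 and 21.6 units and was at least 12.7-fold lower. Its log2 bound (-3.67) came as near to 0 as -2.45 under the alternatives. The third gene of the group, Cxcl9, was not well above background on either array, with 21.3 and 18.1 units.

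Both membrane-anchored chemokines were measured on both arrays, and they differed in direction. Cxcl16, the ligand of Cxcr6, had 4268 intensity units on day 0 against 384 at day 6, 13.0-fold lower (log2 -3.70 ± 0.22). Its second probe had 853 and 65.5 units, at least 11.7-fold lower. Cx3cl1 (fractalkine), which neurons are known to make, had 2705 and 4851 units, a log2 difference of 0.62 ± 0.20, within 2-fold. A further Cx3cl1 probe was not well above background on either array (21.1 and 44.1 units).

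Of the 3 homeostatic CXC ligands 2 were measured, and they differed in direction. Cxcl14, a chemokine of epithelia, had 2146 intensity units on day 0 against 444 at day 6, 5.63-fold lower (log2 -2.49 ± 0.21). Cxcl12 (SDF-1), the ligand of Cxcr4, had 1038 and 1661 units by the probe for NM_013655, a log2 difference of 0.46 ± 0.21. The probe for NM_021704, another transcript of Cxcl12, had 198 and 334 units and a log2 difference of 0.53. By both probes Cxcl12 lay within 2-fold and slightly higher on day 6.

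Ccl25 and Ccl27 were the only ligands at least 2-fold higher on day 6, of the 23 ligand genes measured. Ccl25 (TECK), known from the thymus and gut, had 2120 intensity units on day 0 against 7441 at day 6, 3.01-fold higher (log2 1.59 ± 0.20). Its other probes had 428 and 1944 units, and 49.7 and 206 units, the last well above background on day 6 only. The 2 probes measured on both arrays had log2 differences of 1.59 and 1.96, and the dim probe was at least 1.72-fold higher. Ccl27 (CTACK), a skin chemokine, had 916 and 2873 units, a log2 difference of 1.43 ± 0.21 (2.69-fold higher). The accession of its probe is that of Ccl27a, and whether the probe separates it from the near-identical copies of that gene was not examined.

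Ccl17 and Ccl19, attractants of T cells and dendritic cells, came just above the detection limit on day 6. Ccl17 had 92.6 intensity units on day 0 and 176 at day 6, at least 1.47-fold higher. Ccl19 had 102 and 198 units, at least 1.66-fold higher, and its second probe had 23.4 and 122 units, at least 1.02-fold higher. These minimum folds do not reach 2-fold, and the data do not show whether the differences do.

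**Figure D2:**
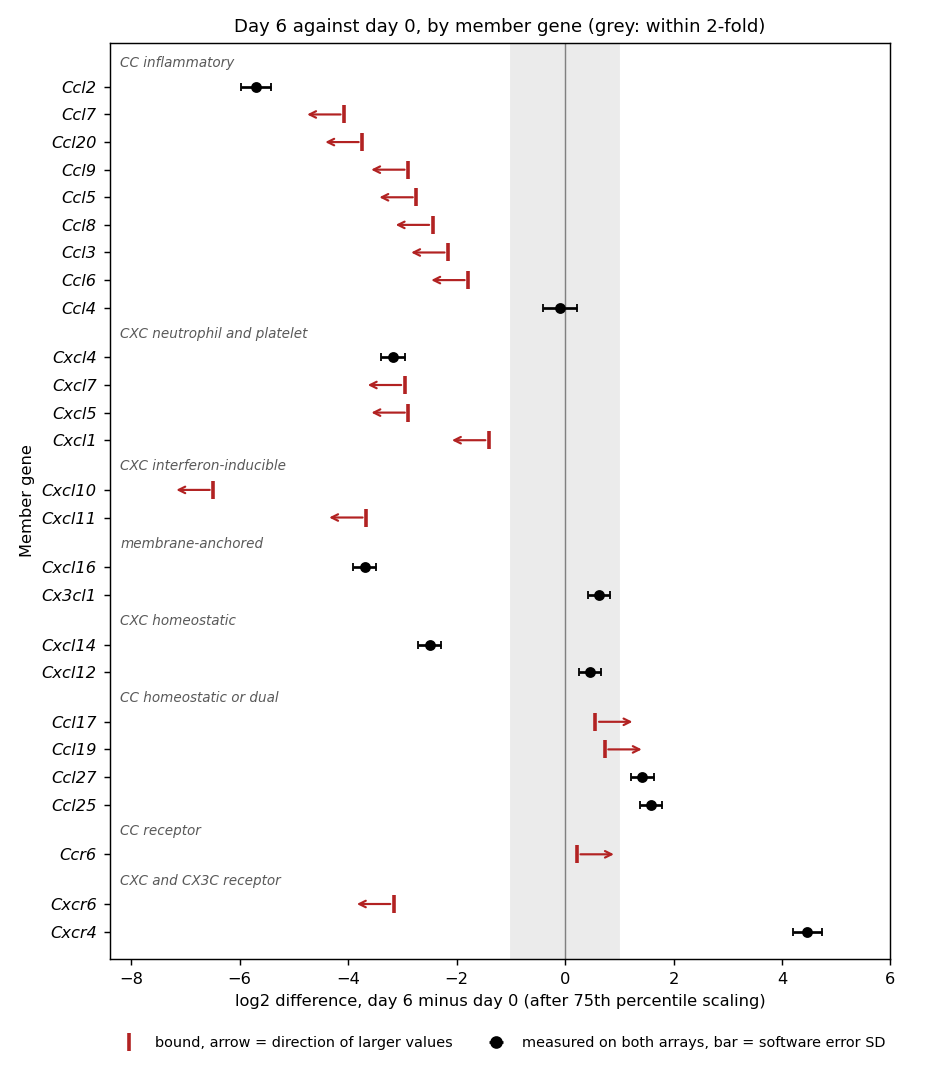
Log2 difference (day 6 minus day 0) of each measured member gene, grouped by role. Black points with bars are genes measured on both arrays with the software error SD, and red ticks with arrows are bounds. Cxcl10 has the lowest bound (-6.49) and Cxcr4 the highest difference (4.46), and the grey band marks values within 2-fold.

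Receptors were rarely seen: 3 of 15 receptor genes were measured, beside 23 of 35 ligand genes. Both shares lie below that of the array, 14967 of 19466 named genes. Cxcr4, the receptor of Cxcl12, had the highest difference of all measured members. It had 190 intensity units on day 0 against 4893 at day 6, 22.1-fold higher (log2 4.46 ± 0.27). Its first probe had 26.9 and 1043 units, passed the background mark at day 6 alone and was at least 8.74-fold higher. The log2 difference was 3.87 with no background subtraction, and 3.80 with the mean of both probes, the dim one at its bound. Cxcr4 held rank 69 in size among the 5794 genes that were measured on both arrays and higher on day 6.

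Cxcr6, the receptor of Cxcl16, went the other way, with 651 intensity units on day 0 and 17.1 at day 6, at least 8.92-fold lower. Its log2 bound (-3.16) came as near to 0 as -2.32 under the alternatives. Ccr6, the receptor of Ccl20, passed the background mark at day 6 alone, with 65.0 and 139 units, at least 1.16-fold higher. Ligand and receptor were thus both well above background on day 6 for Cxcl12 with Cxcr4, and both on day 0 for Cxcl12 with Cxcr4 and Cxcl16 with Cxcr6. Ccl20 was seen on day 0 only and Ccr6 on day 6 only.

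The other 24 members were well above background on neither array and have no fold. They included the ligands Ccl1, Ccl11, Ccl12, Ccl21c, Ccl22, Ccl24, Ccl28, Cxcl2, Cxcl9, Cxcl13, Cxcl15 and Xcl1, and the receptors Ccr1, Ccr1l1, Ccr2, Ccr3, Ccr4, Ccr7, Ccr8, Ccr9, Ccr10, Cxcr3 and Cx3cr1. The highest day 6 signal among them was 52.5 intensity units, for Cxcr3. Receptors of ligands that were bright on day 0 are on this list: Ccr2 for Ccl2 and Cxcr3 for Cxcl10. So are Ccr9 and Ccr10, the receptors of Ccl25 and Ccl27, which were brighter on day 6.

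The median log2 difference over the 26 measured members was -3.55, beside -0.09 over all 14967 measured genes. With genes seen on 1 array only set at their bound, the medians were -2.47 and -0.09. Over the 10 members measured on both arrays the median was 0.18, so the low median rests on genes detected by the day 0 array alone.

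**Figure D3:**
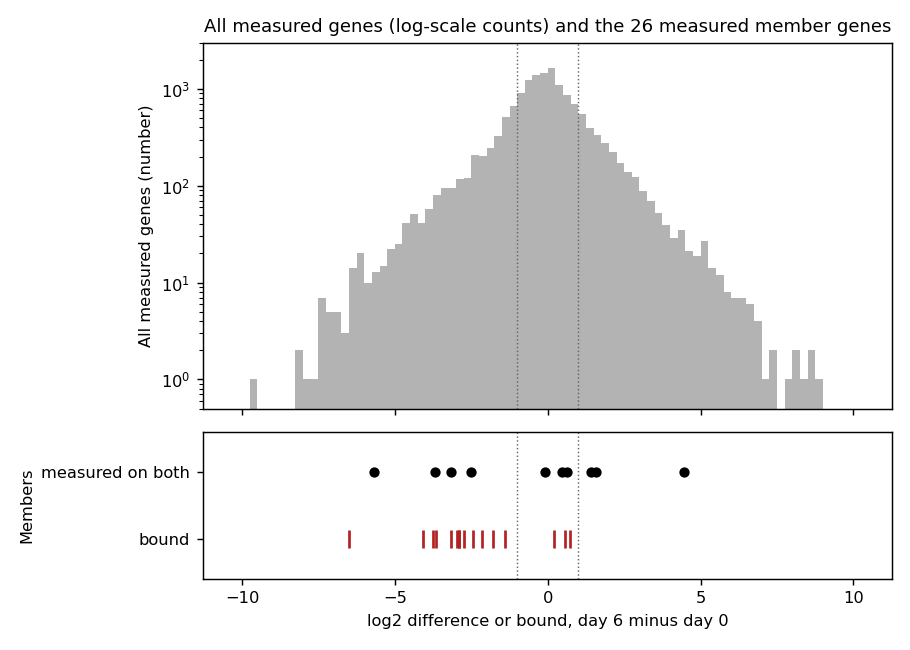
Upper panel: number of measured genes (14967, log-scale axis) by log2 difference or bound, in bins of 0.25. Lower panel: the 26 measured members, as black points where measured on both arrays and red ticks where a bound. Dotted lines mark 2-fold, and 17 members lie beyond it on the lower side and 3 on the higher side.

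Many of the members sit side by side in the genome, which the choice by name did not use. On chromosome 11 the probes of 11 Ccl genes lay between positions 82118723 and 83734514 (build mm7). They were not evenly spread, with a gap from Ccl1, 140 kb from the first probe, to Ccl5 at 1477 kb. Of these genes 8 were measured and 7 were at least 2-fold lower on day 6, beside 20.0% of all measured genes. However, 6 of the 8 entered through the day 0 array alone, so their direction follows from the filter. Within this stretch Ccl2, Ccl7 and Ccl8 stood beside Ccl11, Ccl12 and Ccl1, which were well above background on neither array. On chromosome 5 the probes of 9 Cxcl genes lay between 90732453 and 92348495. Of these genes 6 were measured and all 6 were at least 2-fold lower, beside 20.0% of all measured genes. Again, 5 of the 6 entered through the day 0 array alone, so their direction follows from the filter. Here too a gap ran from Cxcl2, 162 kb from the first probe, to Cxcl9 at 1578 kb. Cxcl9 had no signal well above background, although its probe lies beside that of Cxcl10 (1578 and 1602 kb from the first probe of the cluster). On chromosome 9, 6 receptor genes lay between 123499521 and 123827765, and 1 of them, Cxcr6, was measured. The ligands that were higher on day 6, Ccl25 (chromosome 8) and Ccl27 (chromosome 4), lie outside these clusters.

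**Figure D4:**
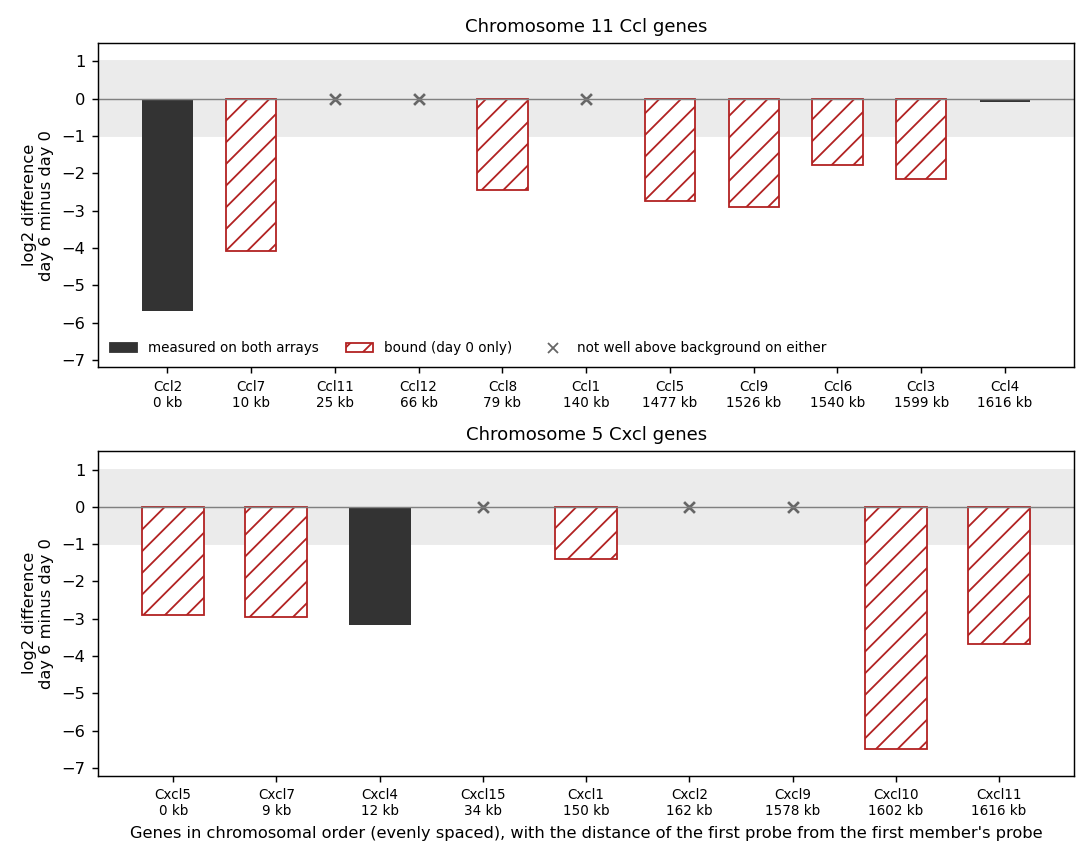
Log2 difference (black bars, measured on both arrays) or bound (hatched bars) of the Ccl genes of chromosome 11 and the Cxcl genes of chromosome 5, in chromosomal order with the distance from the first probe in kb. Genes are evenly spaced, so the gaps between them are not to scale. Crosses are genes not well above background on either array. Bars run below -1 for 7 of 8 and 6 of 6 measured genes, and Ccl4 is the bar near 0.

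Inflammatory chemokine genes are textbook targets of NF-kB and of interferon-activated factors, and the stretch of 250 bases before the transcription start was searched for both motifs. The sequences are those of RefSeq on build GRCm38.p6, in which 37 of the 50 members had an entry. The motifs were the 10-letter kappa-B consensus and the interferon-stimulated response element, searched as GAAA, 2 bases of any kind and GAAA again, each on both strands with overlapping matches allowed. Ccl2, Ccl5, Ccl7, Cxcl5, Cxcl11 and Cxcl16, all lower on day 6, had no entry and were not searched. A kappa-B match was found in 4 of the 11 members at least 2-fold lower on day 6 that had an entry (Cxcl10, Cxcl1, Ccl20 and Ccl9). It was found in 5 of the 26 other members (Ccl1, Cxcl2, Ccr1, Ccr3 and Ccr6) and in 7.25% of all 32851 promoters of the table. Among the 8 other members that were measured, 1 (Ccr6) had it. Each member was counted once over all its entries, while the shares of all promoters count every entry. A response element match was found in Cxcl10 and Cxcl14 of the 11, in Ccl19 of the others, and in 2.98% of all promoters. These matches are letters in a window and not shown to be sites, and the members compared are few.

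The upstream stretches of 3 genes lower on day 6 with a kappa-B match and of Cxcr4, which had neither motif, are shown with the matches in capitals. In Cxcl10 the first capitals are the response element match, starting 213 bases before the start of transcription, and the other runs are kappa-B matches, starting 159 and 104 bases before it. In Ccl20 and Cxcl1 the kappa-B matches start 80 and 71 bases before it. Positions are chr5:92348890-92349139 (minus strand) for Cxcl10, chr1:83116516-83116765 (plus) for Ccl20, chr5:90890995-90891244 (plus) for Cxcl1 and chr1:128592300-128592549 (minus) for Cxcr4.
Cxcl10: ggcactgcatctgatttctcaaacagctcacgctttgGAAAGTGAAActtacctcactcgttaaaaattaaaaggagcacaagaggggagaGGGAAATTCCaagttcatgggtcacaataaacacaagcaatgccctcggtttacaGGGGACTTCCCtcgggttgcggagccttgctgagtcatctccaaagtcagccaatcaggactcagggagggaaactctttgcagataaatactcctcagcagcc
Ccl20: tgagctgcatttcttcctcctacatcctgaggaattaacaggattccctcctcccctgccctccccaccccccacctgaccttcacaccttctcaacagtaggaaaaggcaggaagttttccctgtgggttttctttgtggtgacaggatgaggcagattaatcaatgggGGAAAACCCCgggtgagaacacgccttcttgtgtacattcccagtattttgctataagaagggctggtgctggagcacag
Cxcl1: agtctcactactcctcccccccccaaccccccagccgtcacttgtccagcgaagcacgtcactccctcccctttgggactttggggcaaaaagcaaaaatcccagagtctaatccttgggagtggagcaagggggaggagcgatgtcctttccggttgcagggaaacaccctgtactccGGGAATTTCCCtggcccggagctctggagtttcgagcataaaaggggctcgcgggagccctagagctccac
Cxcr4: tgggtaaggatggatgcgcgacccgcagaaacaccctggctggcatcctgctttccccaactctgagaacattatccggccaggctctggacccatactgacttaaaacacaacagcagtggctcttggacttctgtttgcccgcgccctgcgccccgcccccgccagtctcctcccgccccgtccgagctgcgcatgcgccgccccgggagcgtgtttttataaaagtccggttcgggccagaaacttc

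Genes that work with the members but bear other names were mixed. Of 14 such genes on the array beyond the members, 9 were measured. On day 6, 4 were at least 2-fold higher (44.4%, beside 17.8% of all genes) and 2 lower (22.2%, beside 20.0%). Ackr3, the other receptor of Cxcl12, which takes up and clears the ligand, had 1552 intensity units on day 0 and 14884 at day 6, 8.22-fold higher (log2 difference 3.04 ± 0.21). The protease gene Dpp4, whose product cuts and inactivates Cxcl12 among other chemokines, had 2639 and 304 units and was 10.1-fold lower (-3.34 ± 0.22). Ackr1, an atypical receptor that binds many inflammatory chemokines, had 58.0 and 478 units and was at least 4-fold higher. Xcr1, the receptor of Xcl1, had 798 and 136 units and was 6.85-fold lower (-2.78 ± 0.28). The Cxcl12 group thus held a ligand within 2-fold, 2 receptors that were higher and a cutting enzyme that was lower. Of genes that act downstream of chemokine receptors, 19 were measured: 13 lay within 2-fold, 4 were at least 2-fold lower (21.1%, beside 20.0% of all genes) and 2 higher (10.5%, beside 17.8%), with a median of -0.35. These shares lie near or below those of all genes. The kinase gene Jak2 was 4.89-fold higher. Chosen after their values were seen, the genes lower were Stat3 (3.48-fold), Rgs16 (2.21-fold), Rgs1 (at least 2.43-fold) and Vav1 (at least 2.10-fold).

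Genes of the NF-kB and interferon pathways, some of their target genes included, were counted in separate lists. Of 22 measured genes of the NF-kB list, 13 were at least 2-fold lower (59.1%, beside 20.0% of all genes). On the higher side there were 0, beside 17.8% of all genes, and the median was -1.08. However, 4 of the 22 entered through the day 0 array alone, so their direction follows from the filter. Icam1, an adhesion gene driven by NF-kB, had 12550 intensity units on day 0 and 301 at day 6, 48.7-fold lower. Relb, an NF-kB subunit, was 7.12-fold lower and the growth factor gene Csf1 6.27-fold lower. Il6, a cytokine gene, was at least 4.41-fold lower. Of 13 measured genes of the interferon list, 8 did not pass 2-fold by difference or bound, 4 were at least 2-fold lower (30.8%, beside 20.0% of all genes) and 1 was higher (7.69%, beside 17.8%), with a median of -0.25. Of the 13, 2 entered through the day 0 array alone. The gene that was higher, Stat2, by 2.31-fold, is named after its value was seen. Of those lower, Irf1, a factor that activates Cxcl10, had 38086 and 4920 units and was 9.03-fold lower. Isg15 was 10.9-fold lower, and Gbp2 was at least 299-fold lower.

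Markers of other cell types were mixed, with more lower than higher on day 6. Of 20 fibroblast markers, 19 were measured, 18 on each array, and 12 were at least 2-fold lower (63.2%, beside 20.0% of all genes) and 2 higher (10.5%, beside 17.8%) on day 6. Their summed intensity was 310319 on day 0 and 114666 on day 6, and S100a4, Thy1 and Twist2 were 159-fold, 29.7-fold and 10.5-fold lower. The collagen gene Col1a1 had a log2 difference of -4.32. The 2 that were higher, named after their values were seen, were Pdgfra (at least 4.29-fold) and Lum (3.20-fold). The 5 within 2-fold were Col3a1, Pdgfrb, Postn, Twist1 and Dcn. Their log2 differences were 0.22, 0.40, 0.29, 0.65 and -0.66. Of 16 leukocyte markers, 15 were well above background on day 0 and 6 on day 6. At least 2-fold lower were 11 (73.3% of those measured, beside 20.0% of all genes), and 0 were higher (beside 17.8%). Of the 15, 9 entered through the day 0 array alone, so their direction follows from the filter. Their summed intensity was 86037 on day 0 and 9399 on day 6. The lysozyme genes of macrophages had bounds of 829-fold lower (Lyz2) and 158-fold lower (Lyz1). The macrophage gene Cd68 was 7.71-fold lower, and Fcer1g, an immune receptor subunit, 4.96-fold lower. Ptprc (CD45), which defines leukocytes, had 279 intensity units on day 0 and was not well above background on day 6 (19.0). The endothelial genes Tek and Pecam1 had bounds of 12.3-fold and 9.59-fold lower. At least 2-fold lower were 3 of 5 measured endothelial markers, beside 20.0% of all genes. The other two, also named after their values were seen, were Cdh5 (203 and 344 units, 1.45-fold higher) and Emcn (at least 1.35-fold higher). Whether feeder cells, leukocytes or ES cells gave the day 0 chemokine signal was not tested. Markers of the labelled cell types were counted too. All 8 ES cell markers were at least 2-fold lower on day 6 (beside 20.0% of all genes), Tdgf1 by 172-fold. All 8 were still well above background on day 6. Of 10 neural progenitor markers 7 were at least 2-fold higher (beside 17.8%) and 0 lower, Fabp7 by 319-fold. Of these 7, 2 entered through the day 6 array alone. The other 3, Sox2, Nes and Msi1, lay within 2-fold and were well above background on both arrays.

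**Figure D5:**
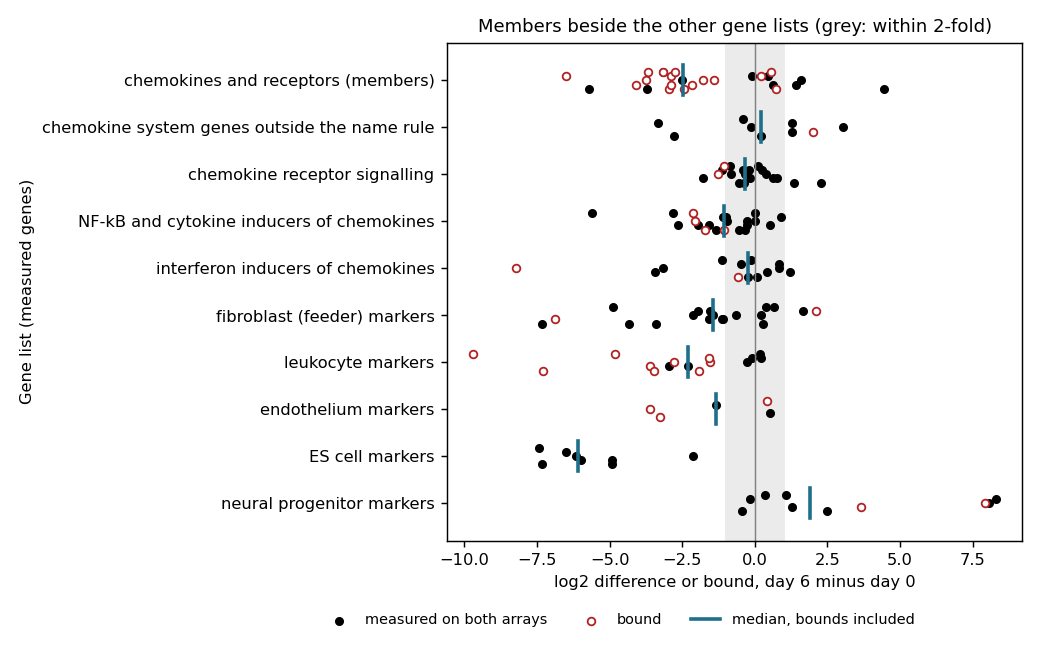
Log2 difference or bound of each measured gene in the members and in the other gene lists, one list per line. Black points were measured on both arrays, open red points are bounds, and the blue bar is the median with bounds included. The bar of the members stands at -2.47, where 13 of the 26 genes entered through the day 0 array alone, and that of the ES cell markers at -6.08.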

How the data were processed

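Total RNA of 2 samples, 1 for each of day 0 and day 6, was measured on one-colour Agilent arrays. Per the file headers, spots were read with Feature Extraction 9.5.3.1 with spatial and multiplicative detrending, and probe positions are in build mm7. The deposited scanner files give spot intensity after background subtraction, with its error and flags. The authors' deposited value table is on a log2 scale by its match to the scanner differences (Pearson correlation 0.989 across 41043 probes, which are not independent). Its column medians are both 8.53, and its making is not described in the labels.

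Here the log2 intensities of the spots of a probe were averaged, outlier spots left out (186 on day 0 and 216 on day 6), and each array centred on its 75th percentile. On day 0 61.3% and on day 6 65.3% of 41174 gene probes were well above background, and a probe entered where it was so on at least 1 array. The brightest probe, by mean log2 intensity, stood for its gene. Members keep the names of the array, and probes were otherwise named through RefSeq (GRCm38.p6), where 22903 probes matched by accession, 6633 by symbol and 3091 by an older symbol. The arrays shared a slide and a scan but not a position, and the effects of position and group cannot be told apart.

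With 1 array a group, genes were counted by size of difference, at 2-fold and 4-fold. The steps were tested on simulated data. Every measured member is named, and of other lists at most 4 genes at least 4-fold apart, those on both arrays first. The members and lists were chosen with earlier results of these data known. Tools were Python 3.11.15, pandas 2.3.3 and, for normexp, limma 3.58.1 in R 4.3.3. The values of 1 member are not reported here.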

Additional observations from a re-analysis of the deposited data

How the results depend on the processing

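Each group had 1 array, so no array could be left out. No paired analysis was possible because each group had 1 array. Of the 26 measured members, 25 kept their side of 2-fold, by difference or bound, under every alternative that measured them, and Cxcl1 did not. None of the members at least 2-fold apart (17 lower, 3 higher) changed direction, while Ccl4, within 2-fold, turned from -0.10 to 0.12 with no scaling. The count at least 2-fold lower was 17, and 4 when members had to pass on both arrays, which leaves 10 genes by construction. At 4-fold the count was 15. It was 4 when members had to pass on both arrays and 10 without background subtraction. Counting probes gave 5 higher by 2-fold and 2 higher by 4-fold, because more items were counted. The median of -3.55 became -2.33 under normexp and -2.19 without background subtraction. It was -2.47 with dim members at their bound, -0.52 with no filter and 0.18 over members on both arrays. The last 3 use other values or members by construction. Of the first pair, normexp adds 50 to each corrected signal and the other setting leaves the background in. How much of the change comes from this was not tested. Values moved by over 1.5 times toward 0 in 12 members with normexp and 13 with no background subtraction. With no scaling, 57.8% of the 2-fold differences over all genes were higher, against 47.1% in the main setting, while the members stayed at 17 lower and 3 higher. The median of all genes was 0.13 with no scaling, -0.21 with median scaling and -0.09 in the main setting. The counts already use bounds, and measured dim values in their place, tried after the data were seen, gave 17 members at least 4-fold lower. Signal over background limits the 16 members seen by 1 array, for which a bound is all that can be given.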
